A study of Mus musculus with 7 samples.

Results

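The genes described here are 36 mouse genes for the mitochondrial oxidation of fatty acids and the use of ketone bodies. They were chosen by name, as a list that follows the pathway in 5 steps, and were looked up by Ensembl identifier among the 53715 identifiers of a gene count table. All 36 were found, and 35 had enough counts to be tested among 15123 tested genes. The step of fatty acid activation holds 8 genes, the carnitine shuttle 5, beta oxidation 16, electron transfer 3, and the use of ketone bodies and acetate 4.

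The table holds RNA-seq counts from the interscapular brown fat of mice, a fat depot of the upper back that burns fuel to make heat. All mice were male C57BL/6J animals, 10 weeks old, and no treatment is named for either group. Wild-type mice (WT, 3 libraries) were compared with knockouts of PGAM5 (KO, 3 libraries), a protein phosphatase of mitochondria. The labels name neither the knockout allele nor whether it is confined to a tissue. They also list a KO replicate 4, which has no column in the count table and was not analysed here. They number the samples without saying that each came from its own mouse, so the p-values measure the spread between these samples.

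Fatty acids enter this pathway as acyl-CoA thioesters, which acyl-CoA synthetases make and thioesterases split. The carnitine shuttle carries the acyl group across the inner mitochondrial membrane. In the matrix each turn of beta oxidation removes a pair of carbons as acetyl-CoA, and the electrons of its first step pass through the electron transfer flavoprotein to the respiratory chain. In brown fat the oxidation of fatty acids fuels heat production by the uncoupling protein UCP1. Brown fat also takes up ketone bodies and acetate from the blood and turns them into acetyl-CoA.

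Pgam5, the gene the knockout targets, had 167, 122 and 186 counts in WT 1, 2 and 3 and 1, 3 and 11 counts in KO 1, 2 and 3. Its log2 fold change was -4.84 (SE 0.59, adjusted p = 0.0243 by edgeR), so the libraries matched their labels. Total counts ran from 18034204 to 33617762 per library. A pair of libraries stood apart in a principal component analysis: on the first component, with 45.6% of the variance, WT 2 lay at -65.0 and KO 3 at 66.8, and the other 4 between -13.0 and 8.23. The same libraries had the highest and the lowest share of counts from the mitochondrial genome, 43.0% in WT 2 and 19.7% in KO 3, against 28.2% to 34.1% in the others. Fold changes are therefore also given without WT 2 and KO 3. In bulk tissue, fewer cells of a type and less RNA per cell cannot be told apart.

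No member passed the test between KO and WT. The edgeR quasi-likelihood test with Benjamini-Hochberg adjustment called 0 of 35 members at an adjusted p under 0.05, in a comparison in which 0.0595% of all genes tested were called (0.0198% higher and 0.0397% lower). DESeq2 and limma-voom also called 0 of 35, with DESeq2 calling 1.12% of the genes it tested. Only an edgeR fit without a filter on low counts called any, namely Acsl5, Acot1 and Mlycd as higher in KO. That fit called 330 genes higher and 333 lower of 27874 genes. The lowest adjusted p of a member was 0.322 with edgeR and 0.0950 with DESeq2, both for Mlycd. At an unadjusted p under 0.05 stood 7 members with a higher mean in KO and 1 with a lower mean, which is 22.9% of the members against 11.8% of all genes (6.3% higher and 5.49% lower). All 3 KO libraries lay above all 3 WT libraries for 9 members and below them for 1, together 28.6% against 19.5% of all genes (10.1% above and 9.39% below).

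The members' log2 fold changes were mostly above 0. Of the 35, 28 (80.0%) were above 0, against 49.8% of all genes, and their median was 0.21, against -0.0019 over all genes. The 280 genes with at least the members' median CPM had a median of -0.026. Without WT 2 and KO 3 the members' median was 0.085, with 21 of 35 above 0, while 49.1% of all genes were above 0. In that fit 2 members stood at an unadjusted p under 0.05, where 8.49% of all genes did, and 0 passed the adjusted threshold, which 0.174% of genes passed. The members most often reached their highest value in KO 3 (19 of 35) and their lowest in WT 2 (16 of 35), and 11 did both. In 4 members the order was the reverse, with the highest value in WT 2 and the lowest in KO 3. As a share of all counts from nuclear genes, the 36 members took 2.79%, 2.93% and 3.15% in WT 1, 2 and 3, and 3.27%, 3.24% and 3.21% in KO 1, 2 and 3, with the lowest KO share above the highest WT share. On the other scales the groups overlapped: the members' summed CPM was 21729 in WT 3 against 21424 and 21227 in KO 1 and KO 2, and their share of all counts was 2.20% in WT 3 against 2.16% in KO 1.

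**Figure D1:**
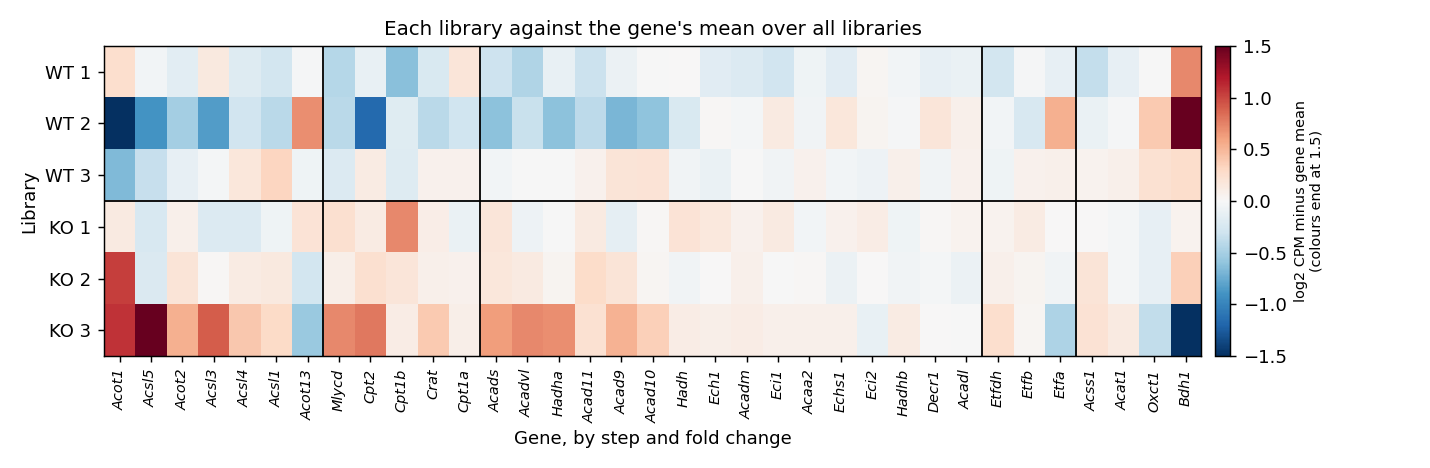
Colours show the log2 CPM of each tested member (columns, grouped by step) in each library (rows) minus that gene's mean over the 6 libraries. The WT 2 and KO 3 rows carry the strongest colours, and 11 members were lowest in WT 2 and highest in KO 3.

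Levels between genes were set side by side as CPM scaled with TMM factors and divided by the summed exon length in kilobases (RPKM below). On this scale the members spanned from 1328 RPKM for Acaa2 to 0.00368 RPKM for Acsl6, as means over the 6 libraries. Acaa2, the thiolase that releases acetyl-CoA at the end of each turn, was followed by Acadl at 945 RPKM and Etfa at 712 RPKM. In all, 17 members were at or above 100 RPKM, among them 11 of the 16 genes of beta oxidation. The median log2 fold change was 0.16 in these 17 members and 0.26 in the 18 tested members under 100 RPKM. Without WT 2 and KO 3 the order was the reverse, with medians of 0.091 and 0.071. Summed exon length counts every annotated exon, and with the length of the principal transcript the level of Hadhb was 1070.15 RPKM in place of 332 RPKM, ranking second instead of sixth. Echs1, Etfdh and Etfb, under 100 RPKM on summed exons, were at 470, 264 and 124 RPKM on that length. The number of members past 100 RPKM thus depends on the length used.

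**Figure D2:**
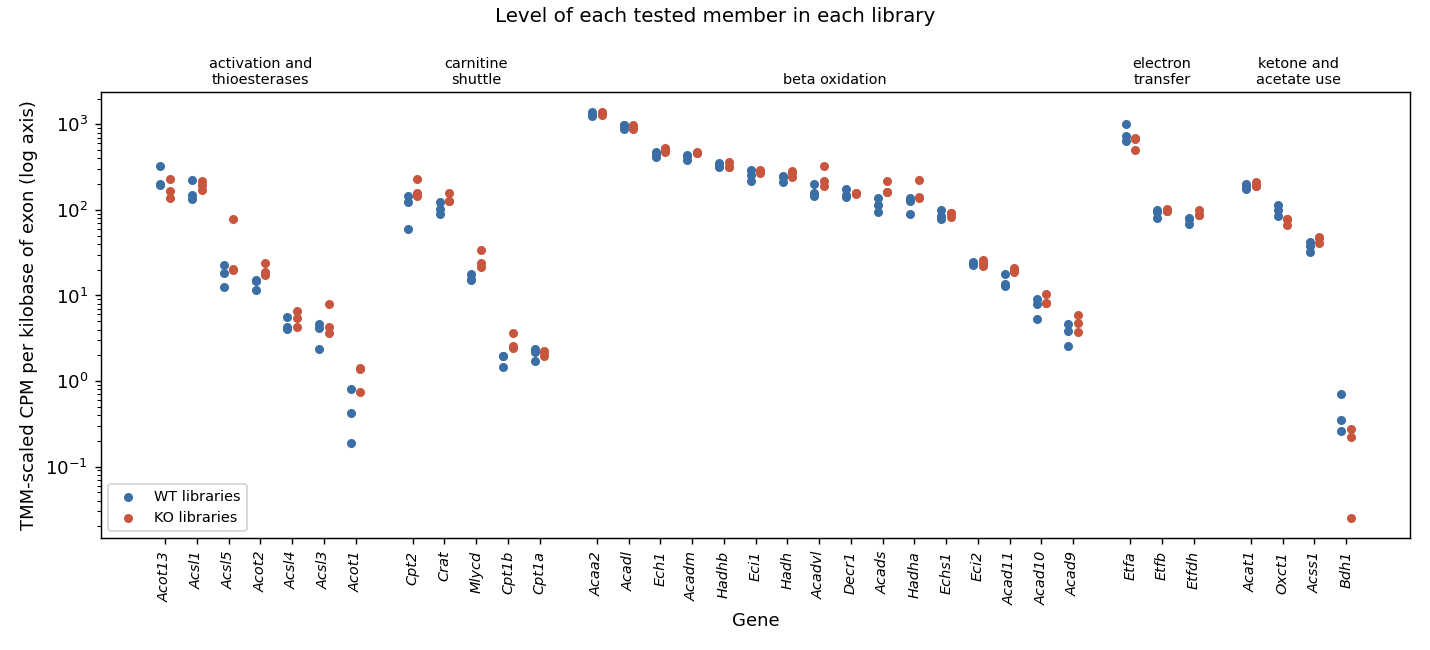
Each point is one library's TMM-scaled CPM per kilobase of exon (log axis) for a tested member, WT in blue and KO in red, with genes ordered by level within each step. The levels run from Acaa2 at 1328 RPKM down to Bdh1 at 0.306 RPKM on average, while the blue and red points of most genes lie close together.

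Promoter windows are printed here for a few members, and whether their sequence bears on the differences was not tested. The windows are the 250 bases before the RefSeq start site (GRCm38.p6), 5′ to 3′ on the strand of the gene, and 29 of 36 members had at least one window. Capitals mark a CCAAT box (CCAAT), a GC box (GGGCGG) or a nuclear receptor half-site (AGGTCA) on either strand. Hadhb is shown because it starts 273 bases from Hadha on the opposite strand and shares 228 bases of its window with it. Mlycd is shown for the lowest adjusted p among the members, and Acot1 and Acot2 as neighbouring copies.
Hadhb (chr5:30155003-30155252, plus strand): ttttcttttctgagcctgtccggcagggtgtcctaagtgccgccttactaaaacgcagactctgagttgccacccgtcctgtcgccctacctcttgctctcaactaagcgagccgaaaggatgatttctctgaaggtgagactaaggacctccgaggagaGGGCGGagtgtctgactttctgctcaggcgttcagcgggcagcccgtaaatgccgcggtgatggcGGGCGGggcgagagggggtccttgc
Mlycd (chr8:119394644-119394893, plus strand): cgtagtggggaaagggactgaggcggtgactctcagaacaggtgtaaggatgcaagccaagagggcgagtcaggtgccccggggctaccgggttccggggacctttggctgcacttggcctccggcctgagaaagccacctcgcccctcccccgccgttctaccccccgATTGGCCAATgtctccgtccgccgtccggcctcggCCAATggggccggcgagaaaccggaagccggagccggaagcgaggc
Acot1 (chr12:84009252-84009501, plus strand): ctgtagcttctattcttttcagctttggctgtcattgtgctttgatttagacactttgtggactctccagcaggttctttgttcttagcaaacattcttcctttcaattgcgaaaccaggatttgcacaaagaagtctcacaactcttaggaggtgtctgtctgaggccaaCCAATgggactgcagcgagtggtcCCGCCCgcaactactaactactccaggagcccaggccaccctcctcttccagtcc
Acot2 (chr12:83987611-83987860, plus strand): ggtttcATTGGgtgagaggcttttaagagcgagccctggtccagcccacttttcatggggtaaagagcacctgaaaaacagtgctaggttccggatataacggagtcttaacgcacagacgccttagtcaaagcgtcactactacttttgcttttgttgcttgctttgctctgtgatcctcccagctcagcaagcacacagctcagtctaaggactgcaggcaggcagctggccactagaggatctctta

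Motif matches in these windows are a description of letters. The CCAAT box stood in 15 of the members' 33 windows, among them those of Mlycd, Acot1 and Acot2, and in 33.83% of all 32817 windows of that length. The GC box stood in 20 of 33, Hadha and Hadhb included, and in 32.72% of all windows. The half-site AGGTCA was found in 5 of 33 (Acadm, Acadvl, Acsl6, Cpt1a and Echs1) and in 14.03% of all windows. Its extended form AAGGTCA, which contains the half-site, was found in 2 of 33 (Acadm and Acsl6) and in 4.08% of all windows. The direct repeat of the half-site spaced by 1 base, the element bound by PPAR and RXR pairs, was in no member window and in 0.03% of all windows.

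Activation and thioesterases came first in the pathway. Of 8 genes, 7 were tested, 6 had a log2 fold change above 0 and 0 passed the test, and the median was 0.50. Without WT 2 and KO 3 that median was -0.0088, with 3 of 7 above 0. Long-chain acyl-CoA synthetases attach coenzyme A to fatty acids, and Acsl1 (chr8:46471037-46536051, mm10) is the main one of adipose tissue. It made up 82.4% to 88.8% of the summed RPKM of the 5 Acsl genes in WT, 86.0% and 86.9% in KO 1 and KO 2, and 70.0% in KO 3. Its CPM was 1558, 1422 and 2349 in WT 1, 2 and 3 and 1794, 2079 and 2287 in KO 1, 2 and 3. The groups overlapped, with a log2 fold change of 0.21 (SE 0.24, adjusted p = 0.722 by edgeR).

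Acsl5 (chr19:55251938-55297720) showed 1 library far above the rest. Its CPM was 111, 61.5 and 89.6 in WT and 96.4, 98.8 and 384 in KO, where the third value is KO 3. The log2 fold change of 1.14 (SE 0.50, adjusted p = 0.422 by edgeR) was 0.16 without KO 3 and -0.036 without WT 2 and KO 3. KO 1 and KO 2 lay inside the WT range. In KO 3, Acsl5 made up 25.3% of the Acsl family's RPKM, against 7.31% to 12.6% in the other 5 libraries.

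The remaining synthetases were at low levels. Acsl3, which is tied to lipid droplets, had 20.4, 10.3 and 18.1 CPM in WT and 16, 18.8 and 34.8 CPM in KO. Acsl4, which prefers polyunsaturated fatty acids, had 23.4, 21.8 and 29.96 CPM in WT and 23.1, 29.1 and 35.2 CPM in KO. Their log2 fold changes were 0.50 (SE 0.33) and 0.22 (SE 0.20), and -0.14 and -0.026 without WT 2 and KO 3. Acsl6, a synthetase known from brain, had 5 counts over all libraries and was not tested.

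Thioesterases free the fatty acid again from coenzyme A. Acot2 (chr12:83987861-83993873), the mitochondrial enzyme, had 32.8, 25.6 and 33.5 CPM in WT and 38.5, 41.8 and 53.2 CPM in KO. The lowest KO value exceeded the highest WT value, with a log2 fold change of 0.54 (SE 0.18, adjusted p = 0.374 by edgeR) that was 0.28 without WT 2 and KO 3. Acot1 (chr12:84009490-84018371), its cytosolic neighbour, had 3.15, 0.734 and 1.68 CPM in WT and 2.91, 5.41 and 5.62 CPM in KO. KO 1 lay below WT 1, so the groups overlapped, and the log2 fold change was 1.30 (SE 0.48, adjusted p = 0.387 by edgeR), or 0.80 without WT 2 and KO 3. The pair share 527 words of 50 bases in their exons, so reads could be split between them. Their summed CPM was 32.5 ± 5.33 in WT and 49.1 ± 8.83 in KO (SD, n = 3), with no library of WT above 36 and none of KO below 41.4. Acot13, a thioesterase linked to mitochondria, had 148, 244 and 144 CPM in WT and 172, 124 and 102 CPM in KO. Its log2 fold change of -0.43 (SE 0.27, adjusted p = 0.514 by edgeR) was 0.023 without WT 2 and KO 3.

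The carnitine shuttle had the highest step median, 0.68, with all 5 genes above 0 and 0 of 5 past the test. Without WT 2 and KO 3 the median was 0.17. KO lay entirely above WT for 3 of the 5 genes, against 10.1% of all genes tested, which in so short a list is a description only. Mlycd (chr8:119394878-119411102) encodes malonyl-CoA decarboxylase, which removes the inhibitor of carnitine palmitoyltransferase 1. It had 45.2, 45.9 and 52.8 CPM in WT and 72.0, 64.6 and 100.0 CPM in KO. The lowest KO value was above the highest WT value. The fold change was 1.64 (log2 0.72, SE 0.19, adjusted p = 0.322 by edgeR), and the log2 value was 0.51 without KO 3 and 0.48 without WT 2 and KO 3.

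The entry enzymes of the shuttle came at low levels. Carnitine palmitoyltransferase 1 is the regulated step, with a liver-type gene, Cpt1a, and a muscle-type gene, Cpt1b, that is known as the main form of brown fat. Cpt1b (chr15:89416405-89425863) had 4.89, 6.67 and 6.59 CPM in WT and 12.4, 8.54 and 8.16 CPM in KO. All KO values lay above the WT values, with the highest in KO 1, and the log2 fold change was 0.68 (SE 0.25, adjusted p = 0.385 by edgeR), or 0.86 without WT 2 and KO 3. Cpt1a (chr19:3322334-3385733) had 18.2, 13.1 and 16.8 CPM in WT and 15.1, 16.9 and 17.2 CPM in KO, with a log2 fold change of 0.025 (SE 0.19, adjusted p = 0.961 by edgeR). Per kilobase of all exon the genes were alike, with 2.34 RPKM for Cpt1b and 2.12 RPKM for Cpt1a. However, 81.4% of the exon bases of Cpt1b lie in a read-through gene of the same strand, Gm44502, listed with 0 counts in every library. On the 0.628 kb of exon outside that gene, the same Cpt1b counts give 12.5 RPKM. How reads in shared exons were assigned is not given in the sources used here, so the level of Cpt1b is uncertain.

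The later enzymes of the shuttle were abundant. Cpt2 (chr4:107903981-107923610), which rebuilds acyl-CoA on the matrix side, had 294, 143 and 348 CPM in WT and 347, 375 and 553 CPM in KO. WT 2 was far below the other 5 libraries and KO 3 far above them, and the log2 fold change of 0.70 (SE 0.32, adjusted p = 0.428 by edgeR) was 0.17 without both. Crat (chr2:30400471-30415813), which moves acetyl groups between coenzyme A and carnitine, had 549.8, 484 and 670.2 CPM in WT and 689, 678 and 840.5 CPM in KO. Its groups did not overlap, with a gap from 670.2 to 678 CPM, and the log2 fold change was 0.37 (SE 0.20, adjusted p = 0.470 by edgeR), or 0.17 without WT 2 and KO 3.

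**Figure D3:**
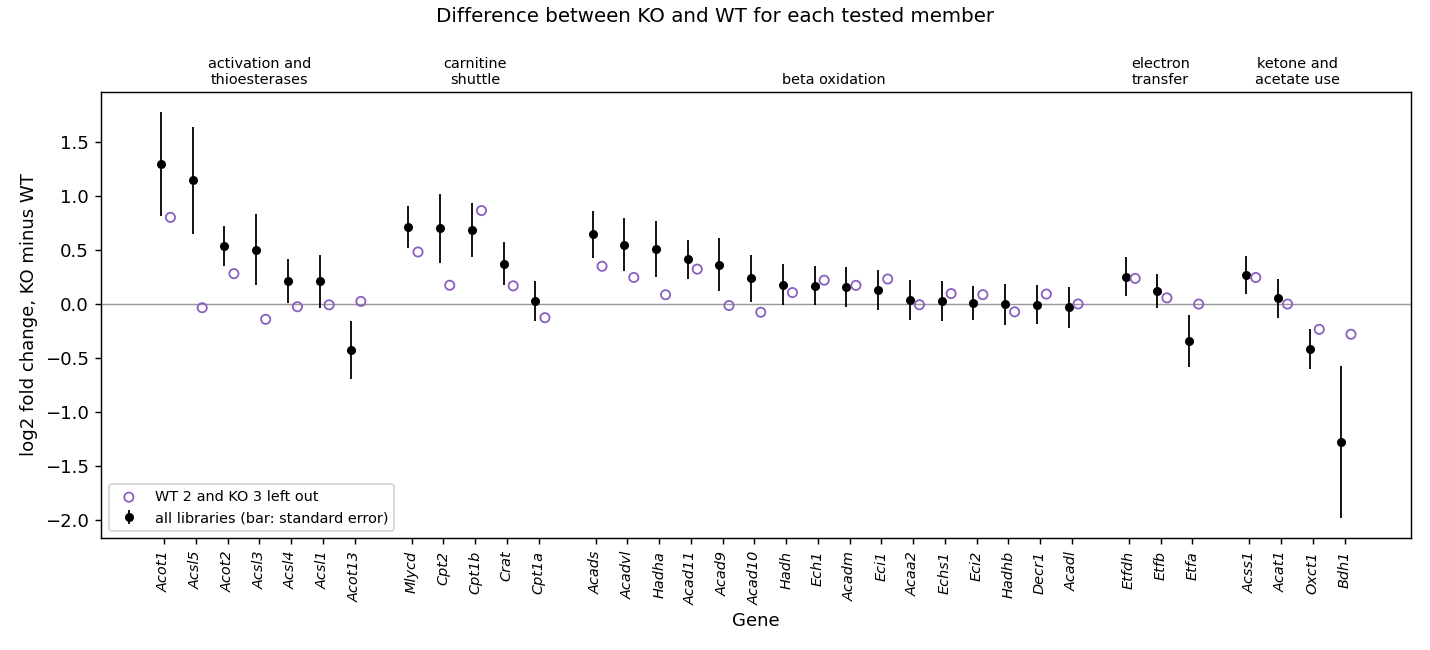
Black points show the log2 fold change of KO minus WT from the edgeR fit on all 6 libraries, with bars of 1 standard error, and open circles the fit without WT 2 and KO 3. Of the black points, 28 of 35 lie above 0, and of the open circles 21 of 35.

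Beta oxidation was described by its enzymes in order of the reaction. Of 16 genes, 13 had a log2 fold change above 0 and 0 passed the test. The median was 0.16, or 0.093 without WT 2 and KO 3. KO lay entirely above WT for 4 of the 16 (25.0%), against 10.1% of all genes tested. The 7 acyl-CoA dehydrogenases take the first step, and among them 6 were above 0, with a median of 0.36, or 0.17 without WT 2 and KO 3. Acads (chr5:115110299-115119346), for short chains, had 262, 213 and 315 CPM in WT and 369, 365 and 500.4 CPM in KO. Each KO value exceeded each WT value, with a fold change of 1.56 (log2 0.64, SE 0.22, adjusted p = 0.374 by edgeR), and the log2 value was 0.35 without WT 2 and KO 3. Acads lies 4.85 Mb from Pgam5 on the same chromosome. On that chromosome the groups overlapped for Acad10 at 11.4 Mb and Hadhb at 80.1 Mb, and did not for Hadha at 80.1 Mb. They also overlapped for Acacb, from the other genes of the pathway, at 3.89 Mb. Whether position bears on these values was not tested.

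Dehydrogenases of longer chains had log2 fold changes between -0.031 and 0.55. Acadvl (chr11:70010183-70015411), for very long chains, had 392, 426 and 535 CPM in WT and 509, 586 and 881 CPM in KO. KO 1 lay below WT 3, and the log2 fold change of 0.55 (SE 0.24, adjusted p = 0.423 by edgeR) was 0.28 without KO 3 and 0.24 without WT 2 and KO 3. Acadl (chr1:66830839-66863277), for long chains, had 1762, 1997 and 1986 CPM in WT and 1955, 1784 and 1883 CPM in KO. Its mean CPM was 1915 ± 132 for WT and 1874 ± 85.8 for KO (SD, n = 3), with a log2 fold change of -0.031 (SE 0.19, adjusted p = 0.952 by edgeR). Acadm (chr3:153922357-153944632), for medium chains, had 1498, 1693 and 1716 CPM in WT and 1797, 1814 and 1859 CPM in KO. Its KO libraries were all above WT by a small margin, at a log2 fold change of 0.16 (SE 0.19, adjusted p = 0.726 by edgeR), or 0.17 without WT 2 and KO 3. The ratio of Acads to Acadl per kilobase was 0.122 ± 0.0245 in WT and 0.194 ± 0.0359 in KO (SD, n = 3). The groups did not overlap, and the log2 difference of the means was 0.67, or 0.35 without WT 2 and KO 3.

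The other dehydrogenases of the family were at lower levels. Acad11 (chr9:104063377-104127725), which acts on very long chains, had 135, 128 and 176 CPM in WT and 184, 204 and 196 CPM in KO. These groups did not overlap, at a log2 fold change of 0.41 (SE 0.18, adjusted p = 0.423 by edgeR), and 0.32 without WT 2 and KO 3. Acad9, known also as an assembly factor of respiratory complex I, ranged from 21 to 38.5 CPM in WT and from 30.7 to 48.3 CPM in KO. Acad10 ranged from 32.0 to 55.8 CPM in WT and from 48.9 to 62.3 CPM in KO. Acad9 and Acad10 had log2 fold changes of 0.36 and 0.24, and -0.015 and -0.077 without WT 2 and KO 3. Acad10 shares 1026 of its 50-base words with Acad12, a gene with 5920 counts against 7079 for Acad10.

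The mitochondrial trifunctional protein carries out the later steps on long chains, with its alpha subunit from Hadha and its beta subunit from Hadhb. The genes lie head to head on chromosome 5, and their shared promoter bases are part of the Hadhb sequence above. Hadha (chr5:30118304-30155162) had 1120.2, 789.5 and 1206 CPM in WT and 1212, 1249.5 and 1966 CPM in KO. KO lay above WT, with KO 1 at 1212 CPM close to WT 3 at 1206 CPM, and the log2 fold change of 0.51 (SE 0.26, adjusted p = 0.459 by edgeR) was 0.085 without WT 2 and KO 3. Hadhb (chr5:30155248-30184593) had 2121, 2155.5 and 2303 CPM in WT and 2088, 2108 and 2374 CPM in KO. Its means were 2193 ± 96.9 and 2190.1 ± 159.9 CPM (SD, n = 3), with a log2 fold change of -0.0021 (SE 0.19, adjusted p = 0.997 by edgeR).

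Set against each other per kilobase, Hadha to Hadhb was 0.399, 0.277 and 0.395 in WT and 0.438, 0.448 and 0.626 in KO. Every KO ratio was above every WT ratio, with WT 2 the lowest and KO 3 the highest, and the log2 difference of the means was 0.50, or 0.16 without both. A near copy on chromosome 2, Gm13910, had 76964 counts beside the 306699 of Hadhb, and 19.7% of the 50-base words of Hadhb occur in other genes. The summed CPM of Hadhb and Gm13910 was 2731 ± 154 in WT and 2739.8 ± 187 in KO (SD, n = 3).

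Hydratases, the short-chain dehydrogenase and thiolase showed small differences. Hadh, which oxidises the hydroxyacyl group, had 1247, 1059 and 1195 CPM in WT and 1427, 1196 and 1333 CPM in KO, at a log2 fold change of 0.18. Echs1, the short-chain enoyl-CoA hydratase, had 650.4, 819 and 706 CPM in WT and 762, 685 and 766 CPM in KO, at 0.025. Acaa2 had 1917, 1941 and 2106 CPM in WT and 1959, 2034 and 2123 CPM in KO, at 0.036. All of these groups overlapped, and none of the log2 values exceeded its standard error, which was 0.18 to 0.19. Without WT 2 and KO 3 the values of Hadh, Echs1 and Acaa2 were 0.10, 0.096 and -0.0078.

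Auxiliary enzymes for unsaturated fatty acids likewise had overlapping groups. Ech1, which shifts conjugated double bonds, had 957, 1084 and 998 CPM in WT and 1197, 1074 and 1145 CPM in KO, at a log2 fold change of 0.17. Eci1, an enoyl-CoA isomerase, had 469.7, 625 and 552 CPM in WT and 626, 570.1 and 603 CPM in KO, at 0.13. Eci2, another isomerase, had 134, 135 and 124 CPM in WT and 142, 131 and 121 CPM in KO, at 0.0057. Decr1, the dienoyl-CoA reductase, had 553, 688 and 581 CPM in WT and 613, 593 and 606 CPM in KO, at -0.0081. The edgeR adjusted p of these 4 genes was 0.699, 0.777, 0.99 and 0.987 in that order. Without WT 2 and KO 3 their log2 fold changes were 0.22, 0.23, 0.085 and 0.091.

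**Figure D4:**
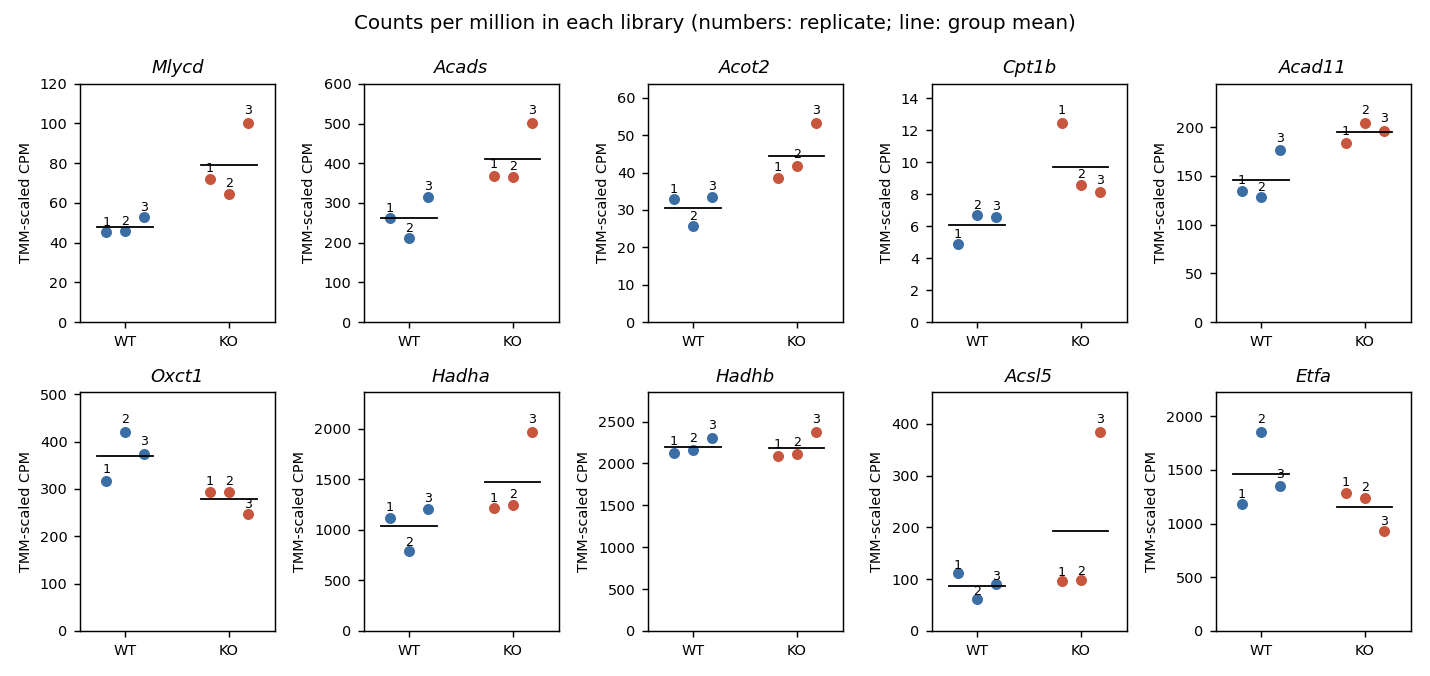
Points show the TMM-scaled CPM of 10 members in each library, labelled by replicate number, with a line at each group's mean and axes that start at 0. Mlycd, Acads, Acot2, Cpt1b, Acad11 and Hadha lie higher in every KO library than in any WT library and Oxct1 lower, while Acsl5 is high in KO 3 alone and Hadhb overlaps.

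Electron transfer joins beta oxidation to the respiratory chain through 3 genes, of which 0 passed the test. Etfa and Etfb encode the subunits of the electron transfer flavoprotein, and Etfdh the dehydrogenase that hands its electrons to ubiquinone. Etfa (chr9:55454508-55512243) had 1178, 1853 and 1354 CPM in WT and 1288, 1237 and 930.0 CPM in KO. WT 2 was the highest and KO 3 the lowest, and the log2 fold change of -0.34 (SE 0.24, adjusted p = 0.547 by edgeR) was -0.0017 without both. Etfb (chr7:43444083-43457800) had 109, 93.4 and 115 CPM in WT and 119.6, 113 and 112 CPM in KO, at a log2 fold change of 0.12 (SE 0.16, adjusted p = 0.757 by edgeR), or 0.056 without WT 2 and KO 3. Its level of 95.0 RPKM rests on exons of which 53.0% are shared with Gm45233, listed at 0 counts, and another 5.2% with Mir7051, and on the unshared exon it would be 227 RPKM.

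Etfdh (chr3:79603788-79629500) had 513, 607 and 595 CPM in WT and 648, 655 and 741 CPM in KO. Its groups did not overlap, at a log2 fold change of 0.25 (SE 0.18, adjusted p = 0.558 by edgeR) that was 0.24 without WT 2 and KO 3. The ratio of Etfa to Etfdh per kilobase was 10.4 ± 1.81 in WT and 6.99 ± 1.63 in KO (SD, n = 3). Its level depends on the length used. With principal transcripts Etfa averaged 939 RPKM and Etfdh 264 RPKM, in place of 712 and 83.5 RPKM. Every KO ratio lay below every WT ratio, and the log2 difference of the means was -0.57, or -0.24 without WT 2 and KO 3.

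Ketone and acetate use had 2 genes above 0 and 2 below, with a median of -0.18 (-0.12 without WT 2 and KO 3) and 0 of 4 past the test. Oxct1 (chr15:4026383-4155344) encodes the transferase that activates acetoacetate, the committed step of ketone body use. It had 317, 420.0 and 374 CPM in WT and 293, 293 and 247 CPM in KO. Every KO library was below every WT library, which held for no other member, and the mean was 1.33-fold lower (log2 -0.42, SE 0.18, adjusted p = 0.423 by edgeR), with a log2 value of -0.24 without WT 2 and KO 3. Acat1, the thiolase that then splits acetoacetyl-CoA, had 663, 714 and 760.4 CPM in WT and 707, 712 and 796 CPM in KO, at a log2 fold change of 0.051 (SE 0.18, adjusted p = 0.912 by edgeR), or -0.0015 without WT 2 and KO 3. The ratio of Oxct1 to Acat1 per kilobase was 0.528 ± 0.0604 in WT and 0.385 ± 0.0607 in KO (SD, n = 3). The groups did not overlap, and the log2 difference of the means was -0.46, or -0.23 without WT 2 and KO 3. Of 6 such ratios between members that were computed, the groups overlapped for the other 2. Each ratio without overlap holds a member whose own groups did not overlap (Hadha, Etfdh, Acads or Oxct1). The ratios are therefore not independent of the single-gene values, and no share over other gene pairs is given. Acot2 to Acot1 was 38.8 ± 22.0 for WT and 18.1 ± 5.02 for KO, and Acsl1 to Acsl5 was 9.80 ± 2.93 for WT and 7.05 ± 3.76 for KO (SD, n = 3).

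Bdh1, which interconverts hydroxybutyrate and acetoacetate, was at a low level. It had 1.37, 2.73 and 0.999 CPM in WT and 0.864, 1.07 and 0.0977 CPM in KO, where KO 3 had 2 counts, under the floor of 3 counts or 0.147 CPM in that library. The log2 fold change of -1.28 (SE 0.70, adjusted p = 0.474 by edgeR) was -0.28 without WT 2 and KO 3. A list of 6 hepatocyte markers had its highest sum in the same WT 2, 557 CPM, and its lowest in the same KO 3, 19.5 CPM, against 278 to 354 CPM elsewhere, and its part in the Bdh1 values was not tested. Acss1, the mitochondrial acetyl-CoA synthetase for acetate, had 132, 158 and 176 CPM in WT and 170.5, 194 and 198 CPM in KO, at a log2 fold change of 0.27 (SE 0.18, adjusted p = 0.528 by edgeR), or 0.24 without WT 2 and KO 3. KO 1 lay below WT 3.

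Other genes of the pathway, 43 in number, were read from the same fit. Of 42 tested, 0 passed, 27 were above 0, and the median was 0.15, or 0.043 without WT 2 and KO 3. At an unadjusted p under 0.05 were 9 higher and 1 lower (23.8%, against 11.8% of all genes). The groups did not overlap for 8 (19.0%, against 19.5% of all genes). Esrra (chr19:6910977-6921813), the nuclear receptor ERR alpha known to drive genes of oxidative metabolism, had 55.3, 80.8 and 78.3 CPM in WT and 113, 103 and 142 CPM in KO. All KO values were above all WT values, with a log2 fold change of 0.74 (SE 0.21, adjusted p = 0.323 by edgeR), or 0.70 without WT 2 and KO 3, and a DESeq2 adjusted p of 0.0852. Pdk4 (chr6:5483351-5496309), the kinase that restrains pyruvate dehydrogenase when fatty acids are used, had 2326, 2677 and 1871 CPM in WT and 1397, 1362 and 1785 CPM in KO. The KO values lay below WT, with a log2 fold change of -0.60 (SE 0.22, adjusted p = 0.388 by edgeR) both with all libraries and without WT 2 and KO 3.

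Further genes with KO entirely above WT were Slc27a1 (a fatty acid transport protein, log2 0.47), Cpt1c (the brain-type palmitoyltransferase gene, 0.92), Acsf3 (malonyl-CoA synthetase of mitochondria, 0.69), Acot8 (a peroxisomal thioesterase, 0.58) and Prkaa2 (a catalytic subunit of AMP-activated kinase, 0.44). In that order their log2 values were 0.28, 0.76, 0.22, 0.31 and 0.27 without WT 2 and KO 3, and Acsf3 was at 0.32 without KO 3 alone. Pparg, the master regulator of adipocytes, lay entirely below WT at -0.28, or -0.27 without WT 2 and KO 3. Overlapping groups were found for Slc25a20 (the carnitine carrier, log2 0.13) and Acacb (the acetyl-CoA carboxylase that makes malonyl-CoA at mitochondria, 0.55, and -0.19 without WT 2 and KO 3). They were also found for the regulators Ppara (-0.09) and Ppargc1a (-0.39, and -0.028 without WT 1). The lowest edgeR adjusted p among these genes was 0.388, for Acsf3.

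Marker lists for the tissue were read beside these values. The 12 brown adipocyte markers summed to 5393 to 6279 CPM in WT and 7107 to 9478 CPM in KO, with no overlap of the groups, and 0 of 12 passed the test. Ppargc1a is on this list and among the other pathway genes. The separation rested on Ucp1, since the other 11 markers summed to 2993 to 4138 CPM in WT and 3342 to 4041 CPM in KO, and 6 of the 12 had a log2 fold change below 0. Ucp1 had 2400.4, 1638 and 2853 CPM in WT and 4607, 3765 and 5974 CPM in KO (log2 1.06, SE 0.28, adjusted p = 0.310 by edgeR). The 6 general adipocyte markers overlapped between groups, at 12576 to 15781 CPM in WT and 12803 to 14688 CPM in KO. White adipocyte markers summed to 65.4 to 153 CPM in WT and 40.2 to 77.9 CPM in KO with Hoxc9 at 0 in all libraries, skeletal muscle markers to 10.9 to 51.4 and 3.41 to 45.2 CPM, and endothelial markers to 232 to 389 and 298 to 626 CPM. Macrophage markers summed to 23.6 to 34.9 CPM in WT and 22.6 to 32.8 CPM in KO, erythroid markers to 723 to 901 and 499 to 759 CPM, and nerve markers to 110.3 to 135 and 93.5 to 154 CPM. Lymphoid markers summed to 2.83 to 4.929 CPM in WT and 4.935 to 7.09 CPM in KO. These groups barely missed overlapping, and 7 of the 8 lymphoid markers were under 1 CPM on average. KO 3 was the highest library for the endothelial list and WT 2 the lowest, as for 11 members. For the white adipocyte and hepatocyte lists WT 2 was the highest and KO 3 the lowest, as for 4 members. The part of these lists in the members' values was not tested.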

How the data were processed

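RNA-seq libraries of interscapular brown fat (3 WT, 3 KO) were analysed from the deposited gene table, which holds raw read counts without normalization per the file headers and values. The authors used build mm10, HISAT2 2.1.0 and DESeq2 besides featureCounts 1.6.2, per the submitters' processing notes. Which annotation release they counted on, and whether by strand, is not given in the sources used here. For antisense genes, reads therefore cannot be told apart (42.9% of the exon bases of Acadvl overlap Dvl2, which had 1008 counts). Positions and exon lengths came from GENCODE M21, with 95.8% of identifiers at the same version. KO 4 has no column in the deposited table and was not analysed here.

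One edgeR 4.0.16 quasi-likelihood fit (R 4.3.3, filterByExpr with a minimum count of 10, TMM factors, genotype as the only term) was run on the whole table, and p-values were adjusted over 15123 genes. The standard error is the absolute log2 fold change divided by the root of F. The edgeR fit alone was tried on simulated counts, drawn from its own model with larger changes than most members showed. That trial does not bear on how well smaller changes are found. Alternatives were DESeq2 1.42.0, its size factors in edgeR, limma-voom 3.58.1, no filter, CPM of at least 1, a replicate block, each library left out, WT 2 and KO 3 left out, mitochondrial genome genes left out, and a threshold of 0.1. The principal transcript length was added after seeing the data. The members, lists and tests were chosen with earlier results of these data known. By rule, all 36 members were named, with pathway genes that passed or whose groups did not overlap and 8 chosen regardless of value, of which some are not reported here for reasons unrelated to their values. Library values were printed for members of at least 20 RPKM, at an unadjusted p under 0.05, at the extremes of a step, or paralogs. The floor of 3 counts covers counting error only, while the standard errors and SDs also include the spread between samples.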

Additional observations from a re-analysis of the deposited data

How the results depend on the processing

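Without a filter on low counts, 3 members were called higher (Acsl5, Acot1 and Mlycd, edgeR adjusted p = 3.15e-05, 0.0263 and 0.0268) and 6 other pathway genes, in a fit that called 330 genes higher and 333 lower of 27874. In the other alternatives 0 members were called. Without WT 2 and KO 3, 2 members stood at an unadjusted p under 0.05, and the median log2 fold change was 0.0853 for the members, -0.00876 for activation, 0.173 for the carnitine shuttle and 0.0935 for beta oxidation. This fit turned Acsl1 (-0.00876), Acsl3 (-0.143), Acsl4 (-0.0262), Acsl5 (-0.0356), Acot13 (0.0230), Cpt1a (-0.128), Acad9 (-0.0152), Acad10 (-0.0773), Acaa2 (-0.00780), Decr1 (0.0913), Acat1 (-0.00151) and Acacb (-0.186). Hadhb was 0.00482 without a filter and 0.00495 without mitochondrial genome genes. Leaving out each library in turn gave 3 to 8 members at an unadjusted p under 0.05 (3 without KO 3). The share of all genes at that threshold in these fits is not given here. In the same fits of 2 against 3 libraries, 11 to 18 members had groups that did not overlap (31.4% to 51.4%), against 25.6% to 32.6% of all genes. The medians then ran from 0.136 (without KO 3) to 0.297 for the members, 0.124 to 0.639 for activation, 0.401 to 0.767 for the carnitine shuttle, 0.0352 to 0.183 for electron transfer and 0.0153 to 0.202 for the other pathway genes. Across these fits the log2 fold change spanned 0 for Cpt1a (-0.0986 to 0.124), Acadl (-0.0881 to 0.00269), Hadhb (-0.0641 to 0.0395), Echs1 (-0.0480 to 0.119), Eci2 (-0.0459 to 0.0604), Decr1 (-0.0719 to 0.0892), Acat1 (-0.00643 to 0.0995) and Ppara (-0.176 to 0.0319). In all, 464 of 490 member values over 14 alternative fits kept their direction and 26, in 15 members, did not; the cause was not tested. Same-numbered WT and KO libraries correlated at -0.114, 0.102 and 0.0909 in their deviations. The labels do not say whether the numbers pair the samples, and correlations over so few libraries cannot decide it. With the replicate block edgeR called 1 gene higher and 4 lower over all genes and 0 members. At 5 counts in all, Acsl6 was too low to test.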
